A study of Mus musculus with 26 samples.

Results

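The nuclear genes for subunits of respiratory complexes III, IV and V were followed in left ventricle RNA of 4 mouse groups. They were taken from a table of 15249 genes by name: every symbol that starts with Uqcr, with Cox4, Cox5, Cox6, Cox7 or Cox8, or with Atp5, together with Cyc1. The rule found 42 genes, 9 of complex III, 16 of complex IV and 17 of complex V, and it used no measured value. All 42 passed the filter on low counts. Cox7a2l, Atp5s and Atp5sl carry a prefix of the rule, and are known as assembly or accessory factors more than as subunits.

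The groups were wild type (wt, 6 libraries), Mst-1 overexpressing (MstTg, 7), Gal-3 knock out (Gal3Ko, 8) and the 2 genotypes combined (Mst1Gal3, 5). All were on the C57BL6 background. Mst-1 is a kinase of the Hippo pathway, encoded by Stk4, and its overexpression in mice is in use as a model of dilated cardiomyopathy; Gal-3 is galectin-3, a secreted lectin encoded by Lgals3. The sources used here give no age, no sex and no promoter for the transgene. The labels do not say that replicates came from separate mice, so every p-value speaks only of the scatter among the libraries of a group, part of which may be technical.

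Complex III takes electrons from ubiquinol and hands them to cytochrome c, and complex IV, cytochrome c oxidase, passes them on to oxygen. Both pump protons out of the mitochondrial matrix, and complex V, the ATP synthase, lets them flow back and makes ATP. The beating heart depends on this route for nearly all of its ATP. Most subunits are encoded in the nucleus and a few catalytic ones in the mitochondrial genome. Several subunits of complex IV come as a pair of genes, a heart and skeletal muscle isoform that takes over around birth and a ubiquitous isoform.

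Libraries held 18580405 to 32663735 counts. Stk4 was at 22.4 to 26.1 CPM (counts scaled to a common library size) in wt and 21.03 to 25.9 CPM in Gal3Ko, against 846 to 1066 CPM in MstTg and 839.6 to 1168 CPM in Mst1Gal3, so every library matched its Mst-1 label. Lgals3 was at 50.9 to 60.01 CPM in MstTg and 2.54 to 5.43 CPM in Mst1Gal3. It was at 0.878 to 2.41 CPM in wt and 1.47 to 2.74 CPM in Gal3Ko, so its count does not check the knockout label of Gal3Ko against wt; the sources used here do not name the deleted exons. Summed cardiomyocyte markers (8 of 8 measured) stood at 92370 to 137334 CPM. In 6 libraries (wt replicate 5, MstTg 5, Gal3Ko 4, 5 and 8, Mst1Gal3 3) the atrial genes Myl4, Myl7 and Sln together exceeded 30 CPM. For the members, Mst1Gal3 replicate 4 and wt replicate 2 stood apart, with the highest value of their group beyond Dixon's limit for 7 and 6 of the 42 genes.

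In wt ventricle the 42 genes held 1.41% to 1.72% of all counts (median 1.51%). In MstTg they held 0.819% to 0.992% (median 0.921%), in Gal3Ko 1.38% to 1.65% (median 1.503%) and in Mst1Gal3 0.915% to 1.10% (median 0.966%). The range of MstTg and that of Mst1Gal3 lay below those of both groups without the transgene. Genes of the mitochondrial genome took 29.2% to 35.5% of counts in wt and 14.4% to 23.3% in MstTg. With these left out, the members' median share was 2.18% in wt, 1.11% in MstTg, 2.26% in Gal3Ko and 1.18% in Mst1Gal3.

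The 3 complexes fell by nearly the same amount. Summed over its genes, complex III was at 3079 CPM ± 166 (SD, n = 6) in wt and 1483 ± 124 (n = 7) in MstTg, complex IV at 3541 ± 237 and 1779.6 ± 127, and complex V at 9528 ± 639 and 4845 ± 340. In Gal3Ko (n = 8) the sums were 3168 ± 171, 3734 ± 203 and 9885 ± 398, and in Mst1Gal3 (n = 5) 1749.8 ± 155, 2091 ± 194 and 5416 ± 346. For each complex the highest MstTg library was below the lowest wt library. The summed level of complex IV over that of complex III was 1.15 ± 0.0334 in wt and 1.20 ± 0.0344 in MstTg, and that of complex IV over complex V was 0.372 ± 0.00330 and 0.367 ± 0.0108. Complex III over complex V was 0.315 to 0.333 in wt and 0.295 to 0.316 in MstTg, ranges that met only at their ends. These ratios were not tested, and Atp5b and Atp5a1 dominate the sum of complex V.

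**Figure D1:**
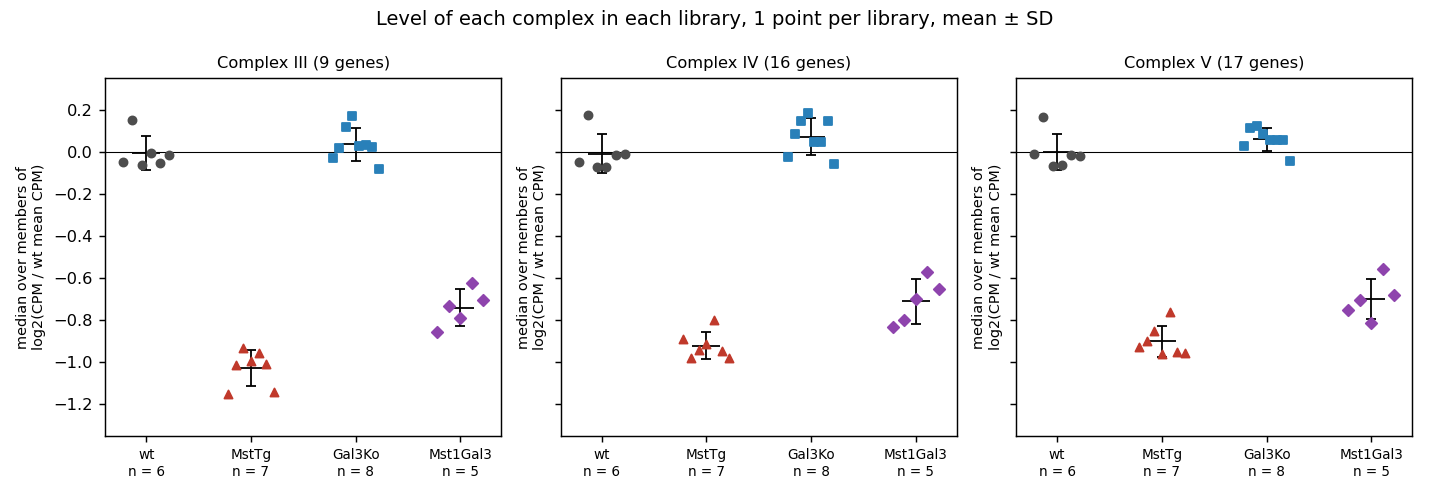
Level of each complex in each of the 26 libraries: the median over its genes of log2(CPM / wt mean CPM), 1 point per library, with the group mean ± SD. MstTg libraries lie between -1.15 and -0.93 for complex III, -0.98 and -0.80 for complex IV and -0.96 and -0.76 for complex V, below all wt and Gal3Ko libraries, and Mst1Gal3 libraries lie at -0.86 to -0.62, -0.83 to -0.57 and -0.81 to -0.56, above all MstTg libraries for complex III and overlapping them for complexes IV and V.

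The first comparison asked what Mst-1 overexpression does to these genes with galectin-3 intact. Of the 42 genes, 40 were lower in MstTg than in wt and none was higher at an adjusted p under 0.05 (edgeR's quasi-likelihood test on counts, Benjamini-Hochberg adjusted over all 15249 genes). Across all genes tested, 26.8% were called lower and 28.2% higher. The fall was called for 9 of 9 genes of complex III (median log2 fold change -0.94), 14 of 16 of complex IV (-0.92) and 17 of 17 of complex V (-0.88), while the median over all genes was 0.02. All 42 estimates were below 0 (40 when libraries were scaled by their totals), whereas 52.1% of all genes had one above 0. For 36 members the MstTg and wt ranges did not overlap, against 16.2% of all genes with MstTg lower. Both exceptions, Cox6a1 and Cox8a, are ubiquitous isoforms of complex IV.

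The second comparison asked the same in the absence of galectin-3. Here 38 of 42 genes were lower in Mst1Gal3 than in Gal3Ko and none was higher, against 25.6% of all genes called lower and 26.9% higher. The median log2 fold change was -0.87 for complex III (8 of 9 called), -0.82 for complex IV (14 of 16) and -0.73 for complex V (16 of 17), and 0.01 for all genes. Ranges did not overlap for 33 members, against 14.5% of all genes. The 4 genes not called were Uqcr10, Cox6a1, Cox8a and Atp5l. Without Mst1Gal3 replicate 4, which had the highest Uqcr10 and Cox6a1 of its group, both were called lower (-0.30 with adjusted p = 0.00503, and -0.26 with adjusted p = 0.00790, edgeR).

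Scaling bears on the size of these falls. With library totals in place of TMM factors (edgeR's trimmed-mean scaling), the median of all genes moved from 0.02 to 0.27 in MstTg against wt and from 0.01 to 0.24 in Mst1Gal3 against Gal3Ko. As a scaling moves every gene of a library alike, the members' median relative to that of all genes stayed at -0.93 and -0.79. With library totals 38 members were lower and 1 higher in the first comparison and 33 lower in the second; over all genes the calls shifted from 4302 higher and 4083 lower to 7789 and 2166, and from 4108 and 3905 to 7374 and 1929. Without the 6 libraries with atrial genes 41 and 37 members were lower.

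**Figure D2:**
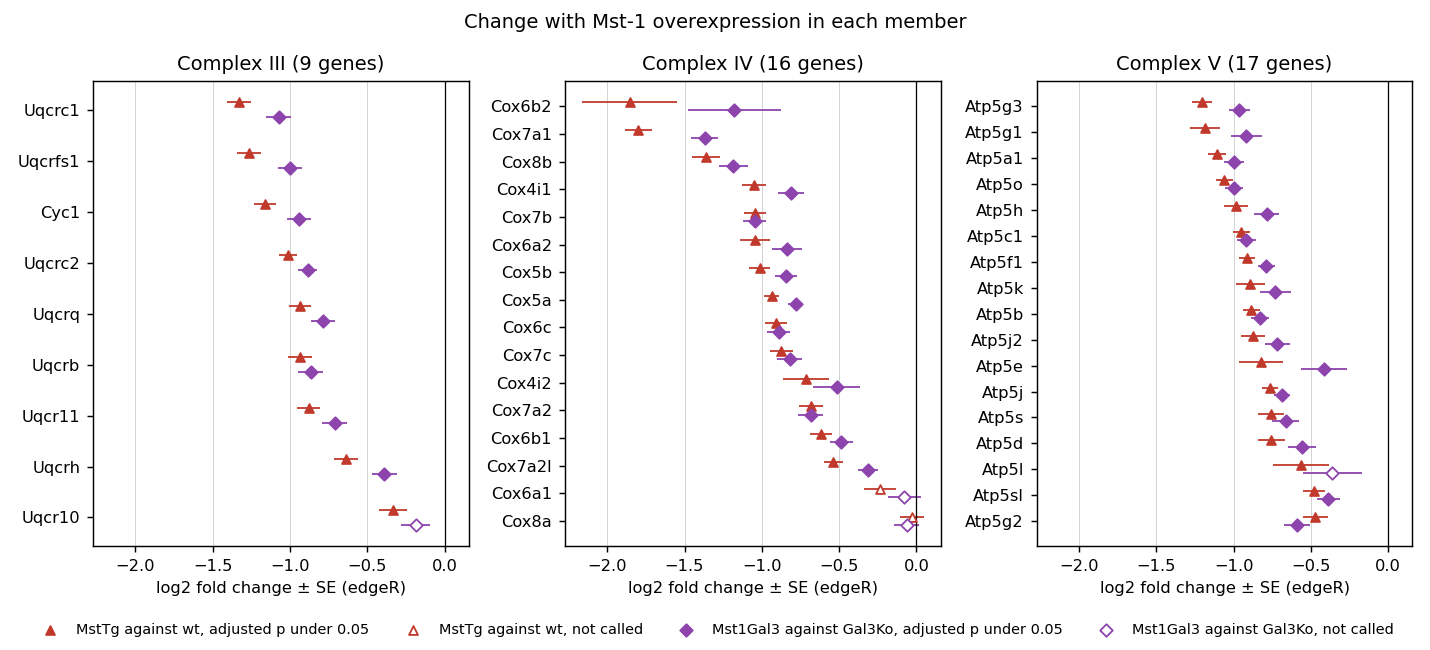
Change with Mst-1 overexpression in each gene: log2 fold change ± SE (edgeR) of MstTg against wt (triangles, 7 and 6 libraries) and of Mst1Gal3 against Gal3Ko (diamonds, 5 and 8 libraries), by complex; filled symbols have an adjusted p under 0.05. All 42 estimates are below 0 in both comparisons (40 and 39 with library totals), from -1.86 (Cox6b2) to -0.03 (Cox8a) in the first, and Cox7a1 and Cox8b are the lowest well-measured genes of complex IV.

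Markers of cell types moved in the same comparisons. Across all genes tested, 26.8% were called lower and 28.2% higher in MstTg against wt. The shares in Mst1Gal3 against Gal3Ko were 25.6% and 26.9%. In MstTg against wt 8 of 8 fibroblast markers rose (median 1.32), and their summed level went from 809 to 1097 CPM in wt to 2646 to 3251 CPM in MstTg. Of 8 endothelial markers 6 fell (summed 839 to 1018 CPM in wt, 621 to 746 CPM in MstTg). Of 8 cardiomyocyte markers 6 fell and 2 rose (median -0.53), with sums of 92370 to 118491 CPM in wt and 106438 to 126039 CPM in MstTg. Macrophage markers had 1 of 7 higher and 1 lower, smooth muscle and pericyte markers 2 of 7 higher and 1 lower, and 5 of 5 red blood cell markers were not called. In Mst1Gal3 against Gal3Ko 8 of 8 fibroblast markers rose (median 1.37, from 779 to 956 CPM summed in Gal3Ko to 2187 to 2763 CPM in Mst1Gal3). In the same comparison 6 of 8 endothelial markers fell, cardiomyocyte markers had 2 of 8 higher and 5 lower, and smooth muscle and pericyte markers 4 of 7 higher and 1 lower. Of the 5 adipocyte markers none and of the 6 lymphocyte markers only Cd4 was in the table. The part of cell composition in the members' fall was not tested; in bulk tissue, fewer cells of a type and less RNA per cell cannot be told apart.

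Among the catalytic and core subunits of complex III, Uqcrc1, the larger core protein, fell most. It was at 747 to 881 CPM (median 778) in wt, 238 to 371 CPM (median 326) in MstTg, 761 to 847 CPM (median 785) in Gal3Ko and 386, 368, 330.4, 458 and 349 CPM in Mst1Gal3. Every library with the transgene was below every library without it. The log2 fold change was -1.33 ± 0.08 (SE) in MstTg against wt (adjusted p = 8.45e-16, edgeR) and -1.07 ± 0.08 in Mst1Gal3 against Gal3Ko (adjusted p = 7.17e-13).

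Uqcrfs1 encodes the Rieske iron-sulphur protein, which takes the first electron from ubiquinol. It stood at 395 to 457 CPM (median 405) in wt, 158 to 195 CPM (median 170.4) in MstTg, 373 to 477 CPM (median 416) in Gal3Ko and 207, 206, 174, 268 and 191 CPM in Mst1Gal3. Cyc1, cytochrome c1, which receives that electron, stood at 333 to 393 CPM (median 341), 123 to 183 CPM (median 165), 339 to 398 CPM (median 357) and 191, 192, 171, 204 and 188 CPM in the same order. Neither gene had any overlap between groups with and without the transgene, and in both the MstTg range reached lower than that of Mst1Gal3. Log2 fold changes of MstTg against wt were -1.26 ± 0.08 for Uqcrfs1 and -1.16 ± 0.07 for Cyc1, and of Mst1Gal3 against Gal3Ko -0.999 ± 0.08 and -0.94 ± 0.08.

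The second core protein, Uqcrc2, was at 577 to 669.8 CPM (median 624.9) in wt, 288 to 326 CPM (median 311) in MstTg, 560.1 to 709.9 CPM (median 646) in Gal3Ko and 345, 376, 319.9, 329 and 368 CPM in Mst1Gal3. Its 2 transgenic groups again lay wholly below the others (-1.02 ± 0.06 and -0.88 ± 0.06). The small subunits fell less evenly. Uqcrq (-0.94), Uqcrb (-0.93) and Uqcr11 (-0.88) were close to the median of the complex in MstTg against wt. Uqcrh, the acidic hinge protein near the cytochrome c site, changed by -0.64 ± 0.08 in that comparison and by -0.39 ± 0.08 in Mst1Gal3 against Gal3Ko, where its ranges overlapped and the call was lost with library totals (-0.16, adjusted p = 0.116, edgeR). Uqcr10 had the smallest called change of the complex, -0.34 ± 0.09 (adjusted p = 0.00266, edgeR), with 124 to 156 CPM in wt and 85.3 to 135 CPM in MstTg, and this call was lost with library totals (-0.09, adjusted p = 0.413).

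Complex IV showed the widest spread. The subunits that exist in 1 form in heart fell together: in MstTg against wt Cox7b changed by -1.05, Cox5b by -1.01, Cox5a by -0.94, Cox6c by -0.91 and Cox7c by -0.87 on the log2 scale, all called. Cox5a, which sits on the matrix side of the enzyme, had the tightest groups, at 342 to 389.6 CPM (median 360.4) in wt, 183 to 199 CPM (median 191) in MstTg, 328 to 397 CPM (median 373) in Gal3Ko and 217, 223, 206, 222 and 207 CPM in Mst1Gal3. The 4 ranges fell into 3 levels, with wt and Gal3Ko overlapping, Mst1Gal3 below them and MstTg lowest. Cox5b, the zinc-binding neighbour of Cox5a, was at 189 to 224 CPM (median 197), 80.3 to 117 CPM (median 104), 188 to 229 CPM (median 212) and 112, 118, 115, 125 and 119 CPM in that order. Its groups with and without the transgene did not overlap (-1.01 ± 0.07 and -0.84 ± 0.07).

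Per kilobase of annotated exon, the muscle isoforms Cox7a1 and Cox8b were the most abundant complex IV transcripts of wt ventricle. Cox7a1 stood at 693 ± 47.2 CPM per kb (SD, n = 6), Cox8b at 618, Cox6b1 at 527, Cox6a2 at 479.6 and Cox4i1 at 421 CPM per kb. Their partners Cox7a2, Cox8a and Cox6a1 stood at 149.7, 47.1 and 40.6 CPM per kb. The lung isoform Cox4i2 (4.97 CPM per kb) and the testis isoform Cox6b2 (0.603 CPM per kb) were near the bottom. Exon length here is the union over annotated transcripts, so a gene with long, rarely used exons is set too low.

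Promoters are shown for Cox7a1 and Cox8b, the well-measured complex IV genes that fell most, for their partners Cox7a2 and Cox8a, and for Cox6a1. The muscle isoform Cox6a2, partner of Cox6a1, had no promoter in the RefSeq table, so this is not the full set of muscle isoforms. The nearly silent Cox6b2 is not shown. Each stretch runs from 250 bases before to 50 bases after the RefSeq start on GRCm38.p6, in the direction of transcription, and capitals mark matches to the motifs named below. The first is Cox7a1 (chr7:30183921-30184220, plus strand), followed by Cox7a2 (chr9:79759804-79760103, minus strand), Cox8b (chr7:140900397-140900696, minus strand), Cox8a (chr19:7217567-7217866, minus strand) and Cox6a1 (chr5:115348909-115349208, minus strand).
Cox7a1: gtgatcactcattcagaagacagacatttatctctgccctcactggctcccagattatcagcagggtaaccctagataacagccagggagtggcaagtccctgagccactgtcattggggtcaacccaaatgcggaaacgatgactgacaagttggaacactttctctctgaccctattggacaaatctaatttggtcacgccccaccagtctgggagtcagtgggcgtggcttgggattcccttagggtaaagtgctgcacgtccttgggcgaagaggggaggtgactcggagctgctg
Cox7a2: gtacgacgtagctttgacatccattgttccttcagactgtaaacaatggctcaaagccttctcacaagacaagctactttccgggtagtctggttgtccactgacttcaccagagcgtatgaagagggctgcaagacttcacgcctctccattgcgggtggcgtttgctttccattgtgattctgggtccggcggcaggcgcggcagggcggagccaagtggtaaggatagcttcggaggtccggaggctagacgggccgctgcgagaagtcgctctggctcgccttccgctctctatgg
Cox8b: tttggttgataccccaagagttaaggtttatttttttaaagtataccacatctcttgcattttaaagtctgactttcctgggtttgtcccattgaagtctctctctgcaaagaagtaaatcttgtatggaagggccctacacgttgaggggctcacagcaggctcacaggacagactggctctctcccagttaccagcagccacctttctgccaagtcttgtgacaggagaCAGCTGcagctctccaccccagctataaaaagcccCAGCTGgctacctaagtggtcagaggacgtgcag
Cox8a: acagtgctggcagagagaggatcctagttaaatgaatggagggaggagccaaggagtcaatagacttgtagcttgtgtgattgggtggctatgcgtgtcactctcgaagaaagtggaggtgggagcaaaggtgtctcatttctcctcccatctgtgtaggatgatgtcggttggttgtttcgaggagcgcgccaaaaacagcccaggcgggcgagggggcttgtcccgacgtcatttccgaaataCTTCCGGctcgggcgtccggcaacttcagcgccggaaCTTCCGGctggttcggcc
Cox6a1: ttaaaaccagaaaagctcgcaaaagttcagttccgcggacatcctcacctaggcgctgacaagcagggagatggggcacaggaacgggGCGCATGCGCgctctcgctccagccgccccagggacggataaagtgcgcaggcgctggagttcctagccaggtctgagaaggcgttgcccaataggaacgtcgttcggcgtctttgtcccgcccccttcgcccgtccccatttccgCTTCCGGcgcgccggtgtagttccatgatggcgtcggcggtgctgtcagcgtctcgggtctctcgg

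The 2 muscle isoforms shown had 7 CG pairs in Cox7a1 (GC content 53.0%) and 2 in Cox8b (48.3%). The 3 ubiquitous isoforms shown had more, 20 in Cox7a2 (56.7%), 19 in Cox8a (56.0%) and 32 in Cox6a1 (63.0%). The median over 32851 promoters of this length was 7 CG pairs and 52.7% GC. Both genes that were not called in MstTg against wt held the ETS core CCGGAAG, which the factor GABP binds: Cox8a at 2 places and Cox6a1 at 1, on the strand opposite to that printed. Cox6a1 also held the NRF1 core GCATGCGC once on each strand, in 2 overlapping matches. Cox8b held the E-box CAGCTG at 2 places, and Cox7a1 and Cox7a2 held none of the motifs searched. A match is a description of letters, not a bound site.

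Promoters were in the RefSeq table for 33 of the 42 members, 37 stretches in all, and a member was counted if any of its stretches held the motif on either strand. The ETS core was in 10 of 33 members (30.3%) and in 8.86% of all promoters; the NRF1 core in 6 (18.2%) against 2.71%; the YY1 core AAGATGGCG in 3 (9.09%) against 1.4% (461 of 32851); and the ERR site TCAAGGTCA in 1 (Atp5g3, 3.03%) against 0.423%. The E-box was in 2 members, Cox8b and Atp5b (6.06%, against 16.3%). The MEF2 core, TATTTATA or TAAAAATA, was in none, against 4.30%. The ETS core was in some genes with weak falls (Cox8a, Cox6a1, Uqcrh) and absent from others (Uqcr10, Atp5g2, Atp5sl, Cox7a2l), and it was also in genes near the median (Atp5h, Uqcr11).

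Cox7a1 (ENSMUSG00000074218, chr7:30184144-30186078, plus strand, GRCm38) fell most of the well-measured genes. The muscle isoform of subunit 7a stood at 335 to 404 CPM (median 371) in wt, 98.6 to 120.4 CPM (median 102) in MstTg, 315 to 475 CPM (median 374) in Gal3Ko and 127, 134, 130.3, 187 and 150.3 CPM in Mst1Gal3. MstTg kept 28.8% of the wt level, and the 2 transgenic groups did not overlap each other, MstTg being lower. The log2 fold change was -1.80 ± 0.08 in MstTg against wt (adjusted p = 6.53e-18, edgeR) and -1.37 ± 0.09 in Mst1Gal3 against Gal3Ko (adjusted p = 2.57e-14). Its ubiquitous partner Cox7a2 was at 119.7 to 173 CPM (median 142), 78.8 to 94.9 CPM (median 88.8), 138 to 202 CPM (median 158) and 95.5, 93.6, 99.3, 91.6 and 117 CPM in the same order, and fell by less (-0.68 ± 0.08 and -0.68 ± 0.08).

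Cox8b, the muscle isoform of the smallest subunit, was at 209 to 252 CPM (median 218) in wt, 72.05 to 109 CPM (median 83.4) in MstTg, 214 to 255 CPM (median 233) in Gal3Ko and 89.8, 93.3, 94.5, 136 and 103 CPM in Mst1Gal3. It changed by -1.36 ± 0.09 and -1.18 ± 0.10 on the log2 scale in the 2 comparisons. Cox8a was at 25.6 to 33.8 CPM (median 28.2), 23.9 to 34.2 CPM (median 27.3), 28.04 to 35.4 CPM (median 30.7) and 29.7, 27.3, 32.5, 30.3 and 29.5 CPM. All 4 of its ranges overlapped, with a log2 fold change of -0.03 ± 0.08 in MstTg against wt (adjusted p = 0.765, edgeR), which was 0.21 (adjusted p = 0.0317) with library totals.

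The muscle isoform of subunit 6a, Cox6a2, was at 294 to 376 CPM (median 310.3) in wt, 115 to 205 CPM (median 164) in MstTg, 309 to 409.7 CPM (median 356) in Gal3Ko and 183, 182, 213, 229 and 184 CPM in Mst1Gal3 (-1.04 ± 0.09 and -0.84 ± 0.10). Cox6a1 was at 26.7 to 31.1 CPM (median 27.7), 19.2 to 29.1 CPM (median 24.8), 25.8 to 32.3 CPM (median 30.3) and 24.8, 25.7, 26.6, 42.7 and 24.2 CPM. The ranges of Cox6a1 overlapped in all comparisons, and the fourth Mst1Gal3 library stood far above the rest. Its log2 fold change in MstTg against wt was -0.24 ± 0.10 (adjusted p = 0.0567, edgeR); it was called in 8 alternative analyses, among them DESeq2 (adjusted p = 0.0468), limma-voom (0.0454) and the fit without Mst1Gal3 replicate 4 (0.00733).

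**Figure D3:**
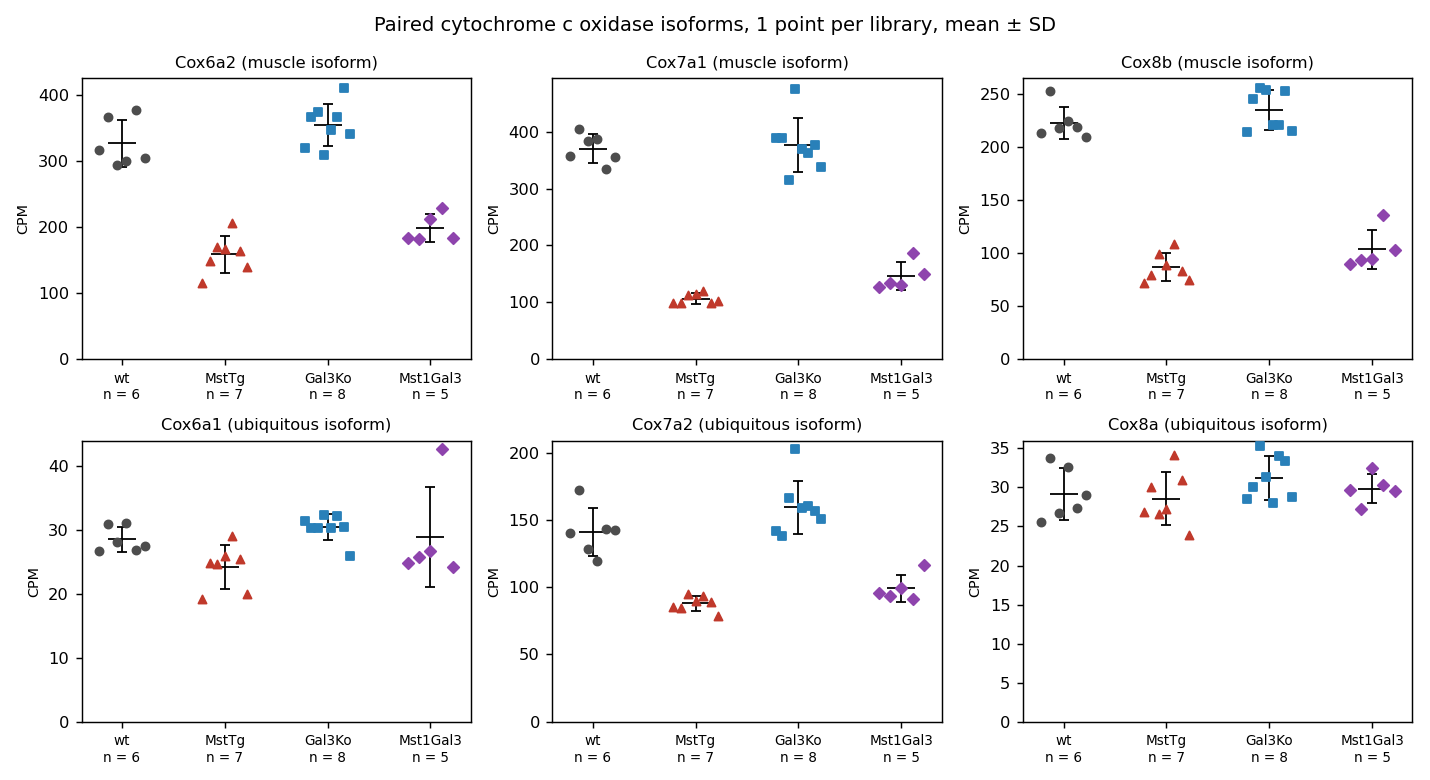
Level in CPM of the muscle isoform (top row) and ubiquitous isoform (bottom row) of subunits 6a, 7a and 8 of complex IV, 1 point per library, with the group mean ± SD; each panel has its own axis from 0. In the top row all MstTg and Mst1Gal3 libraries lie below all wt and Gal3Ko libraries, and in the Cox8a and Cox6a1 panels the groups overlap.

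A ratio of 2 isoforms within a library does not depend on how libraries are scaled. Cox7a1 over Cox7a2 (ratio of CPM) was 2.34 to 3.23 (median 2.52) in wt, 1.11 to 1.295 (median 1.18) in MstTg, 1.896 to 2.82 (median 2.34) in Gal3Ko and 1.33, 1.44, 1.31, 2.05 and 1.29 in Mst1Gal3. The ratio of Cox8b over Cox8a was 6.88 to 8.33 (median 7.73), 2.64 to 3.71 (median 3.12), 6.48 to 8.16 (median 7.54) and 3.03, 3.42, 2.91, 4.49 and 3.49 in the same order. For Cox6a2 over Cox6a1 it was 9.66 to 14.04 (median 11.5), 5.97 to 7.06 (median 6.47), 9.54 to 13.5 (median 11.8) and 7.395, 7.07, 7.99, 5.37 and 7.59. Each ratio was lower in every MstTg library than in any wt library.

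Mean log2 ratios differed between MstTg and wt by -1.12 for subunit 7a, -1.34 for subunit 8 and -0.81 for subunit 6a. Each had p = 0.000583 in an exact permutation test, two-sided, the smallest that 7 against 6 libraries can give, and an adjusted p of 0.00363 over 28 tests (7 pairs of genes in 4 comparisons). Between Mst1Gal3 and Gal3Ko the differences were -0.70, -1.14 and -0.73 (exact permutation test, adjusted p = 0.00622, 0.00363 and 0.00363). The muscle isoforms thus fell further than their partners in both comparisons. No difference in these ratios was called between Gal3Ko and wt (adjusted p = 0.249, 0.797 and 0.8402, exact permutation).

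The other isoform pairs of complex IV gave weaker readings. Cox4i1, the main form of subunit 4, was at 611 to 753 CPM (median 633) in wt, 256 to 372 CPM (median 313) in MstTg, 629.6 to 756 CPM (median 666) in Gal3Ko and 366, 365, 331, 492 and 361 CPM in Mst1Gal3 (-1.05 ± 0.08 and -0.81 ± 0.08). Cox4i2, its oxygen-sensitive counterpart, was at 2.8999 to 5.16 CPM (median 3.81), 1.85 to 2.68 CPM (median 2.49), 3.003 to 4.904 CPM (median 3.59) and 2.26, 2.14, 2.88, 2.74 and 3.31 CPM. It fell in both comparisons too (-0.72 ± 0.15 and -0.52 ± 0.15), the second call being lost with library totals. The log2 ratio of Cox4i2 over Cox4i1 was 0.35 higher in MstTg than in wt and was not called (exact permutation test, adjusted p = 0.128).

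Cox6b1 was at 358 to 415 CPM (median 367) in wt, 206 to 283 CPM (median 246) in MstTg, 356 to 451 CPM (median 391.9) in Gal3Ko and 256, 261, 257, 351 and 285 CPM in Mst1Gal3, a change of -0.62 ± 0.07 and -0.48 ± 0.07. Cox6b2 gave the lowest estimate of all members (-1.86 ± 0.31 and -1.18 ± 0.30) but was nearly silent, at 0.2905 to 1.13 CPM in wt and 0.0999 to 0.292 CPM in MstTg, and these ranges touched. The difference in the log2 ratio of Cox6b2 over Cox6b1 between MstTg and wt (-1.16, exact permutation test, adjusted p = 0.0145) shrank to -0.11 and lost its call with 0.5 CPM added to both genes. Cox7a2l is known as a factor for supercomplexes of complexes III and IV, a role not examined in these mice. It was at 70.4 to 83.5 CPM (median 77.9), 48.5 to 58.3 CPM (median 52.2), 62.7 to 81.1 CPM (median 72.9) and 55.998, 58.98, 53.3, 64.7 and 55.7 CPM. Its fall was smaller than most (-0.54 ± 0.06 and -0.31 ± 0.06), and the second call was lost with library totals (-0.0752, adjusted p = 0.305, edgeR).

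In complex V the subunits of the catalytic head fell together. Atp5a1 and Atp5b encode its alpha and beta subunits and were the most abundant members per length in wt (846 ± 59.96 and 799 ± 58.8 CPM per kb, SD, n = 6). Atp5a1 was at 2530.0 to 3029 CPM (median 2597) in wt, 1117 to 1373 CPM (median 1223) in MstTg, 2504 to 3022 CPM (median 2713) in Gal3Ko and 1407, 1419.9, 1239, 1476 and 1308 CPM in Mst1Gal3. Atp5b was at 3190.0 to 3870.4 CPM (median 3339.9), 1658 to 2039.6 CPM (median 1841), 3370.2 to 3753 CPM (median 3519) and 2007, 2102, 1855, 2076 and 1891 CPM. In both genes every transgenic library was below every other library. Log2 fold changes were -1.11 ± 0.06 and -0.88 ± 0.06 in MstTg against wt and -0.999 ± 0.06 and -0.83 ± 0.06 in Mst1Gal3 against Gal3Ko.

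Atp5c1, the gamma subunit that turns inside the head, was at 413 to 529 CPM (median 470.3) in wt, 234 to 259 CPM (median 240.3) in MstTg, 476 to 538 CPM (median 504) in Gal3Ko and 269, 277, 264, 226 and 299 CPM in Mst1Gal3 (-0.95 ± 0.06 and -0.92 ± 0.06). Its Mst1Gal3 range held 1 library below the MstTg range. The delta and epsilon subunits of the central stalk changed by -0.76 (Atp5d) and -0.82 (Atp5e) in MstTg against wt. Atp5e was the most variable abundant member, with an SE of 0.14, and its fall in Mst1Gal3 against Gal3Ko (-0.42 ± 0.15, adjusted p = 0.0204, edgeR) was lost without Mst1Gal3 replicate 2, 3 or 5 (adjusted p of 0.0598 to 0.0604), without the 6 libraries with atrial genes (0.134) and with library totals (-0.19, adjusted p = 0.306).

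The peripheral stalk, which holds the head still, fell by similar amounts. In MstTg against wt the change was -1.06 for Atp5o, -0.98 for Atp5h, -0.91 for Atp5f1 and -0.77 for Atp5j, and in Mst1Gal3 against Gal3Ko -0.998, -0.79, -0.79 and -0.69, all called. The membrane subunits Atp5j2 and Atp5k changed by -0.87 and -0.89 in MstTg against wt. Atp5l had only 9 to 44 counts in a library and 9 other genes with a near-identical stretch (at least 95% identity over 200 bases or more), so its -0.56 is uncertain; the call was lost with library totals. Atp5s and Atp5sl, which are not subunits of the enzyme, fell by 0.76 and 0.48.

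The membrane ring of complex V is built from a subunit that 3 genes encode, with different import signals and the same mature protein. Atp5g3 was at 429 to 502 CPM (median 455) in wt, 175 to 220.5 CPM (median 202) in MstTg, 413 to 524 CPM (median 437) in Gal3Ko and 234, 222, 210.3, 264 and 219 CPM in Mst1Gal3. Atp5g1 was at 308 to 388 CPM (median 337), 119 to 187 CPM (median 162), 315 to 401 CPM (median 345) and 183, 169, 154, 236 and 185 CPM, and Atp5g2 at 23.96 to 35.9 CPM (median 27.3), 18.02 to 23.5 CPM (median 20.3), 30.5 to 35.03 CPM (median 31.9) and 22.99, 21.7, 18.8, 17.7 and 25.6 CPM. The 2 abundant genes fell most of all in complex V (-1.20 ± 0.06 for Atp5g3 and -1.18 ± 0.10 for Atp5g1 in MstTg against wt), and the scarce Atp5g2 fell least (-0.47 ± 0.08).

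Within libraries Atp5g1 over Atp5g3 was 0.714 to 0.833 (median 0.754) in wt and 0.654 to 0.847 (median 0.789) in MstTg, and the log2 ratio differed by 0.01 (exact permutation test, adjusted p = 0.907). For Atp5g2 over Atp5g3 it rose from 0.0532 to 0.0714 (median 0.0618) in wt to 0.0923 to 0.118 (median 0.0993) in MstTg, with no overlap and a difference of 0.74 in the log2 ratio (exact permutation test, adjusted p = 0.00363). In Gal3Ko it was 0.0581 to 0.079996 (median 0.0746) and in Mst1Gal3 0.09802, 0.0977, 0.0895, 0.0672 and 0.117. The differences in Gal3Ko against wt (0.25, adjusted p = 0.0389) and Mst1Gal3 against Gal3Ko (0.36, adjusted p = 0.0356, both exact permutation tests) were lost on leaving out any 1 of 10 of 14 and any 1 of 9 of 13 libraries.

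Galectin-3 knockout alone gave no called change in any member. In Gal3Ko against wt 0 of 42 were called by edgeR, and 0 by DESeq2 and limma-voom, against 0.354% of all genes by edgeR; 3 had an unadjusted p under 0.05, against 6.66% of all genes. Those were Atp5g2 (0.20 ± 0.08), Cox6c (0.19 ± 0.07) and Cox7a2 (0.18 ± 0.08), with adjusted p of 0.564, 0.461 and 0.672. The median over members was 0.06 and estimates ran from -0.14 (Atp5l) to 0.20 (Atp5g2). Of these 35 were above 0 with TMM factors and 21 with library totals, against 50.7% of all genes with TMM factors. No member had ranges that did not overlap.

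The next comparison asked whether galectin-3 knockout changes these genes in the Mst-1 background. All 42 estimates of Mst1Gal3 against MstTg were above 0 (39 with library totals), against 54.5% of all genes, with a median of 0.25 for complex III, 0.21 for complex IV, 0.18 for complex V and 0.02 for all genes. The rise was called for 8 members and a fall for none, against 2.54% of all genes called higher and 2.35% lower. The 8 were Cox7a1, Uqcrh, Uqcrfs1, Cox4i1, Uqcr11, Cyc1, Atp5f1 and Cox5a, that is 4 of complex III, 3 of complex IV and 1 of complex V. At an unadjusted p under 0.05 there were 33, against 18.3% of all genes. This comparison shares the MstTg libraries with that of MstTg against wt.

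Cox7a1 rose most among the called genes, by 0.45 ± 0.09 on the log2 scale (adjusted p = 0.00137, edgeR), from 98.6 to 120.4 CPM in MstTg to 127 to 187 CPM in Mst1Gal3. Its lowest Mst1Gal3 library was above its highest MstTg library, which held for 1 other member, Cox5a (0.17 ± 0.05, adjusted p = 0.02804); over all genes it held for 1.31%. In the 36 alternative analyses the Cox7a1 estimate was 0.35 to 0.52, always called. The ratio of Cox7a1 over Cox7a2 was also higher in Mst1Gal3 than in MstTg, by 0.27 on the log2 scale (exact permutation test, p = 0.00253, adjusted p = 0.00884). Mst1Gal3 replicate 4 stood far above its group for this ratio, at 2.05, with the other libraries at 1.29 to 1.44. Replicate 5 (1.29) lay inside the MstTg range of 1.11 to 1.295. For Cox8b over Cox8a the difference was 0.18 and for Cox6a2 over Cox6a1 0.11, neither called (adjusted p = 0.277 and 0.452, exact permutation).

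In complex III the rise was 0.30 ± 0.08 for Uqcrh (adjusted p = 0.0276), 0.28 ± 0.08 for Uqcrfs1 (0.0311), 0.27 ± 0.08 for Uqcr11 (0.0411) and 0.25 ± 0.08 for Cyc1 (0.0468), by edgeR. Uqcrh was at 103 to 130.1 CPM (median 114) in MstTg and 127, 131, 134, 179.8 and 144 CPM in Mst1Gal3, and Uqcr11 at 57.8 to 84.6 CPM (median 71.7) and 79.2, 79.3, 81.1, 95.2 and 86.7 CPM. In both genes the ranges overlapped and the fourth Mst1Gal3 library was highest. Outside complex III, Cox4i1 rose by 0.28 ± 0.08 (adjusted p = 0.0413) and Atp5f1, the b subunit of the peripheral stalk, by 0.19 ± 0.05 (0.02803, edgeR). Atp5f1 was at 219.7 to 238 CPM (median 225) in MstTg and 255, 263, 236, 286 and 263 CPM in Mst1Gal3, where 1 library lay inside the MstTg range.

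Without Mst1Gal3 replicate 4 only the call of Cox7a1 was kept. By edgeR, Cox4i1 (0.17, adjusted p = 0.235), Uqcrfs1 (0.17, 0.193), Uqcrh (0.20, 0.167) and Uqcr11 (0.22, 0.153) lost theirs. So did Cyc1 (0.22, 0.136), Atp5f1 (0.16, 0.120) and Cox5a (0.16, 0.0772). Of 36 alternative analyses, Cox4i1 was called in 24, Uqcr11 in 24, Cyc1 in 18, Uqcrfs1 and Atp5f1 in 26, Cox5a in 28 and Uqcrh in 29. These 36 include fits without 1 wt or Gal3Ko library, which hardly move the estimates of this comparison. They also include a fit without the low-count filter, which had removed no gene. The tallies therefore overstate how stable the calls are. How many members were called in this comparison turned on single libraries and on the model. The count was 1 without Mst1Gal3 replicate 4 or MstTg replicate 2, 3 without Mst1Gal3 replicate 1 or 2 or MstTg replicate 1 or 7, 4 without MstTg replicate 4, 5 without Mst1Gal3 replicate 5, and 21 without MstTg replicate 5. It was 14 with DESeq2, 11 with limma-voom, 1 with library totals, 1 with these 2 groups alone in the fit, and 22 without the 6 libraries with atrial genes. Over all genes the calls shifted from 387 higher and 359 lower to 136 and 558 with library totals. Genes called higher were 468 with DESeq2, 402 with limma-voom, 260 with these 2 groups alone and 647 without the 6 libraries with atrial genes. Calls over all genes are not given for the fits with 1 library left out, so those member counts have no such reference. Fibroblast markers had 1 of 8 lower and cardiomyocyte markers 2 of 8 higher in the same comparison, and no marker of the other cell types was called. Over all genes 2.54% were called higher and 2.35% lower. Estimates were above 0 for 3 of 8 fibroblast and 8 of 8 cardiomyocyte markers. The part of cell composition in the members' rise was not tested.

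**Figure D4:**
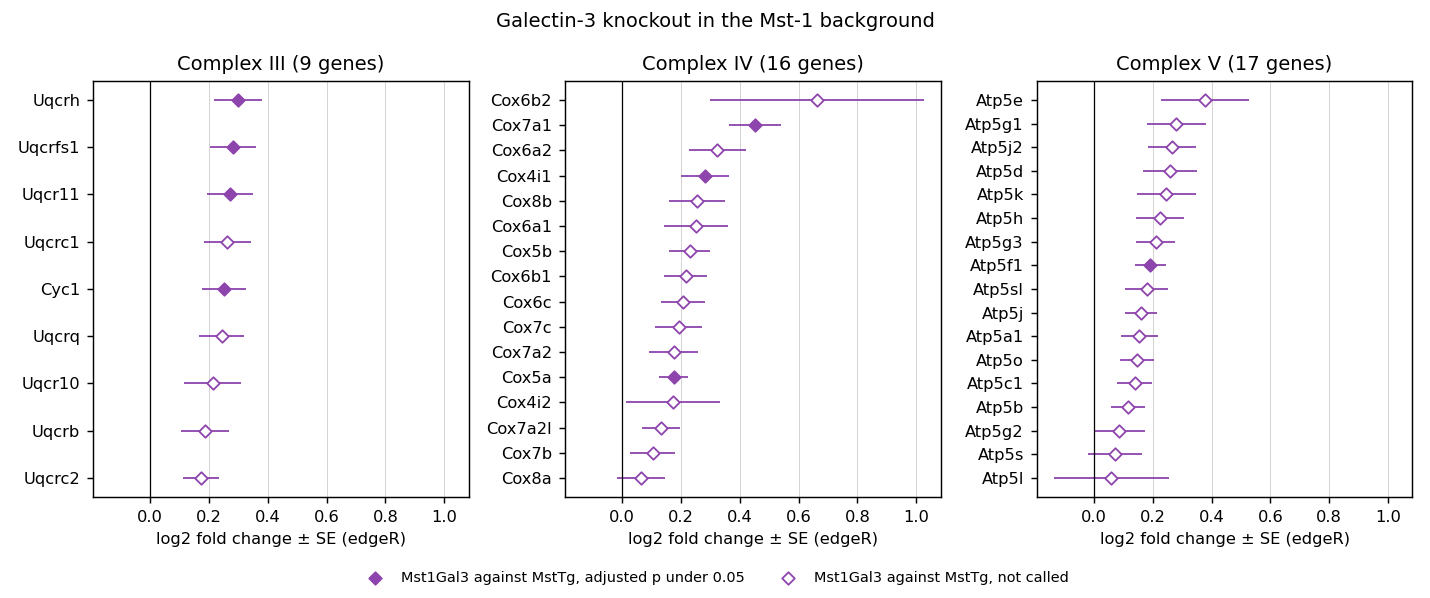
Galectin-3 knockout in the Mst-1 background: log2 fold change ± SE (edgeR) of Mst1Gal3 (5 libraries) against MstTg (7 libraries) for each gene, by complex; filled symbols have an adjusted p under 0.05. All 42 estimates are above 0, 8 of them are called, and Cox7a1 (0.45) is the largest of these.

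Whether the response to Mst-1 differed with the galectin-3 genotype was tested as the change from Gal3Ko to Mst1Gal3 less the change from wt to MstTg (the interaction). No member was called by edgeR, DESeq2 or limma-voom, against 0.656% of all genes by edgeR, and 9 had an unadjusted p under 0.05, against 12.2% of all genes. Of the estimates 40 were above 0 (38 with library totals), against 52.5% of all genes, with a median of 0.16. Cox7a1 came closest, at 0.43 ± 0.12 (adjusted p = 0.0913). It was called without Gal3Ko replicate 4 (0.48, adjusted p = 0.0303), without MstTg replicate 5 (0.46, adjusted p = 0.0496) and without the 6 libraries with atrial genes (0.56, adjusted p = 0.0292).

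Other genes of the respiratory chain, taken from lists chosen with earlier results of these data known, moved the same way. Across all genes tested, 26.8% were called lower and 28.2% higher in MstTg against wt. In MstTg against wt all 38 subunits of complex I fell (median -0.94; Ndufa9 -1.32 ± 0.05), as did the 4 of complex II (median -1.09; Sdha -1.26 ± 0.05). Of the mitochondrially encoded subunits, mt-Cytb, the cytochrome b of complex III, changed by -1.28 ± 0.10 and mt-Co1, the catalytic subunit of complex IV, by -1.34 ± 0.11. The table of counts held no gene under the symbols mt-Co2, mt-Co3, mt-Atp6 and mt-Atp8. Subunits with other names fell too, 5 of 5: Cycs, cytochrome c itself (-0.97 ± 0.07), Ndufa4 (-0.86 ± 0.06), Usmg5 (-0.89 ± 0.10), 2010107E04Rik and Atpif1, the inhibitor of the ATP synthase. In Mst1Gal3 against MstTg 16 of 38 complex I subunits and 3 of 4 of complex II were called higher, and none lower. Over all genes 2.54% were called higher and 2.35% lower. No alternative analysis is given for these counts, and in this comparison the count of members varied widely between alternatives.

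Assembly factors were less uniform. Their calls stand against 26.8% of all genes lower and 28.2% higher in MstTg against wt. For complex III 5 of 6 fell in MstTg against wt, led by Uqcc1 (-1.20 ± 0.06), and 1 rose, Uqcc3 (0.30 ± 0.10), which is named because it is the only one that rose. For complex IV 20 of 25 fell and 1 rose, with a median of -0.45. The largest fall was in Lrpprc, which stabilises mitochondrial messenger RNAs (-1.23 ± 0.05), and the one that rose was Cox19, a copper-handling factor of the intermembrane space. Cox19 was at 25.4 to 31.3 CPM (median 29.2) in wt, 43.3 to 57.6 CPM (median 49.1) in MstTg, 20.8 to 30.2 CPM (median 23.8) in Gal3Ko and 55.7, 55.1, 51.3, 58.6 and 54.2 CPM in Mst1Gal3. Its transgenic groups lay wholly above the others (0.80 ± 0.07 and 1.14 ± 0.07; adjusted p = 6e-11 and 1.84e-14, edgeR). For complex V all 5 measured genes of a list of assembly factors and the inhibitor Atpif1, already counted above, fell, with Tmem70 at -1.04 ± 0.06 and Atpaf1 at -1.05 ± 0.09.

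Of 15 transcription regulators of these genes 8 fell and 1 rose in MstTg against wt, against 26.8% of all genes called lower and 28.2% higher. Their median was -0.27, with 4 of the 15 estimates above 0, up to 0.32. Ppargc1a, the coactivator PGC-1 alpha, was at 116 to 155 CPM (median 138) in wt, 57.99 to 78.8 CPM (median 65.8) in MstTg, 127 to 168 CPM (median 159) in Gal3Ko and 72.6, 78.1, 70.7, 61.3 and 71.5 CPM in Mst1Gal3. Its transgenic and other groups did not overlap (-1.07 ± 0.08 and -1.10 ± 0.08). Perm1, a muscle regulator that acts with PGC-1 alpha, changed by -0.83 ± 0.08, and Tfam, the packaging and transcription factor of mitochondrial DNA, by -0.53 ± 0.07. In Mst1Gal3 against MstTg none of the 15 was called by edgeR, the smallest adjusted p being 0.0878 (Mef2d, 0.18 ± 0.06), and the median was 0.03.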

How the data were processed

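Left ventricle RNA, depleted of ribosomal RNA and made into directional NEBNext libraries per the labels' protocols, was sequenced in 26 libraries. The deposited values are raw read counts per gene, whole numbers made by the authors with STAR and featureCounts on GRCm38 (bcl2fastq 2.19.1.403), per the submitters' processing notes; the strand setting, the multi-mapping rule and other versions are unstated in the sources used here. The table holds only genes with a mean count of at least 10, and 1 count in the smallest library is 0.0538 CPM. Of the 42 members, 14 have a near-identical stretch in another gene (blastn 2.17.0, GENCODE M21) and 12 overlap an exon of the other strand, among them Cox4i1, Cox5a, Cox6a2, Uqcrc2, Atp5a1, Atp5f1 and Atp5o, so some counts could be shared.

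Counts were tested with edgeR 4.0.16 in R 4.3.3 (TMM, robust glmQLFit, glmQLFTest, two-sided) in 1 fit of all 26 libraries with a mean per group, Benjamini-Hochberg adjusted over 15249 genes, with a threshold of 0.05; the script was checked on simulated data. CPM use TMM-adjusted totals. Isoform ratios were compared by exact permutation (NumPy 2.4.6). The members and all gene lists were chosen with earlier results of these data known, so lists are described by counts and medians. Genes named were the core subunits, all isoform families, called members with the largest change, and up to 3 of each list by smallest p. Alternatives were RLE size factors, library totals, DESeq2 1.42.0, limma-voom 3.58.1, other filters, a fit without mitochondrial genome genes, fits of the compared groups alone, a replicate block and each library left out; leaving out the 6 libraries with atrial genes was added after seeing the data.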

Additional observations from a re-analysis of the deposited data

Results flagged for a closer look

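In 19 of 168 gene and group combinations (42 genes in 4 groups) the highest or lowest library stood apart from its group by Dixon's 95% limit, where chance flags about 1 in 20. Mst1Gal3 replicate 4 was the highest of its group for 7 genes: Uqcr10 at 163 CPM (next 118), Uqcrq at 196 CPM (next 167), Cox4i1 at 492 CPM (next 366), Cox6a1 at 42.7 CPM (next 26.6), Cox8b at 136 CPM (next 103), Atp5e at 199 CPM (next 127) and Atp5h at 332 CPM (next 227). These genes lie in all 3 complexes. Replicate 2 of wt was the highest of its group for 6: Uqcrq at 307 CPM (next 274), Cox6b1 at 415 CPM (next 375), Cox8b at 252 CPM (next 224), Atp5a1 at 3029 CPM (next 2618), Atp5b at 3870.4 CPM (next 3357) and Atp5o at 591 CPM (next 511).

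Gal3Ko replicate 4 was the highest of its group for both forms of subunit 7a, Cox7a1 at 475 CPM (next 389) and Cox7a2 at 202 CPM (next 166). Cox6a1 was lowest in Gal3Ko replicate 8, at 25.8 CPM (next 30.2). Uqcrb was highest in MstTg replicate 1, at 112 CPM (next 91.9). Atp5sl was highest of MstTg in replicate 5, at 22.3 CPM (next 18.3), and lowest of Gal3Ko in replicate 1, at 23.0 CPM (next 26.2). Gal3Ko replicates 4 and 8 and MstTg replicate 5 are among the 6 libraries with atrial genes, while Mst1Gal3 replicate 4 and wt replicate 2 are not.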

How the results depend on the processing

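Over the alternatives, the count of members lower in MstTg than in wt was 38 to 41 (40 to 41 with 1 library left out) and in Mst1Gal3 than in Gal3Ko 33 to 40 (37 to 40 with 1 library left out); no member was called in Gal3Ko against wt in any of them. With library totals 1 member, Cox8a, was called higher in MstTg than in wt. The count of members higher in Mst1Gal3 than in MstTg was 8 as reported, 14 with DESeq2, 14 with a filter of a mean of at least 1 CPM, 1 with library totals, 1 with only the 2 groups in the fit, 22 without the 6 libraries with atrial genes and 1 to 21 with 1 library left out. Over all genes the calls higher moved too, from 387 as reported to 468 with DESeq2, 430 with that filter and 136 with library totals. They were 260 with only the 2 groups in the fit and 647 without the 6 libraries with atrial genes. For the fits with 1 library left out they are not given. For the interaction the count of members higher was 1 (Cox7a1) without those 6 libraries and 0 to 1 with 1 library left out. Whether replicate numbers pair the libraries could not be told. Of 34 pairs of the same number in 2 groups, 11 had deviations correlated above 0.1 (range -0.28 to 0.23). Pairs of unlike number were not compared, so these correlations have no reference. With the replicate number as a block, 41 members were lower in MstTg than in wt, 38 lower in Mst1Gal3 than in Gal3Ko and 2 higher in Mst1Gal3 than in MstTg. Over all 15249 genes the matching calls were 4046, 3810 and 279.

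Counting the estimates that were called as reported or under the alternative, signs reversed only with library totals. In MstTg against wt the log2 fold change was then 0.21 for Cox8a, 0.0320 for Cmc1, 0.22 for Gabpb1, 0.0404 for Myh6 and 0.23 for Yy1. In Mst1Gal3 against Gal3Ko it was 0.17 for Atpif1, 0.0421 for Cmc1, 0.0128 for Esrrb, 0.00636 for Esrrg, 0.0542 for Uqcc2 and 0.15 for Yy1. These 11 lie in the direction of the shift of the median of all genes given above. Member estimates called under neither setting changed sign under other settings too: apart from fits with 1 library left out, 21 (library totals) to 37 (limma-voom) were above 0 in Gal3Ko against wt, where 35 are reported, and 37 to 40 in the interaction, where 40 are. In the isoform ratios, 0.5 CPM added to both genes took the call from Cox6b2 over Cox6b1 (-0.11 in MstTg against wt), and leaving out 1 library took it from Atp5g2 over Atp5g3 in Gal3Ko against wt (0.21 to 0.26 without each of 10 libraries) and in Mst1Gal3 against Gal3Ko (0.28 to 0.38 without each of 9). Cox6b2 and Atp5l have few counts, and Atp5l also has 9 other genes with a near-identical stretch. Why their counts are low was not tested. Every other member had at least 45 counts in each library. Whether cell composition, RNA quality or sampling of the ventricle bears on the falls was not tested.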
